A study of Bubalus bubalis with 6 samples.

Results

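The HOX cluster genes were examined in buffalo muscle stem cells (MuSCs). They were taken as every row of the deposited gene table typed as protein coding whose symbol begins with HOXA, HOXB, HOXC or HOXD and a number, which gave 34 of the 24616 genes listed. Polyadenylated RNA had been sequenced from 3 proliferating samples kept in growth medium (GM samples, high-glucose DMEM with fetal bovine serum) and 3 differentiating samples (DM samples, DMEM with horse serum, given once the cells were nearly confluent). Per the study's methods all the cells were MuSCs isolated from fetal longissimus muscle by enzyme digestion. The labels do not say whether the 3 samples of a medium were separate cultures or animals, so p-values measure the spread between these samples, which may be technical. Each sample held between 35615864 and 40305237 counts on genes, and 3 counts, taken here as the limit that a count of 0 allows, were worth 0.0721 to 0.0888 CPM (counts scaled per library size). These limits and the intervals on counts given below cover counting error only.

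HOX proteins are homeodomain transcription factors that give cells of the embryo their position along the head-to-tail axis and along the limbs. Their genes lie in 4 clusters, and within each cluster the genes are numbered by their order, low numbers being used first and nearest the head and high numbers later and nearest the tail, an arrangement called collinearity. Genes with the same number in different clusters are paralogs, descended from one ancestral gene. Cultured muscle progenitors and fibroblasts are known to keep a HOX pattern that reflects where in the body they were taken from, and the longissimus is a back muscle formed from somites of the trunk.

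In the gene table, which names no genome build and lists cattle Ensembl identifiers, the HOXA members ran from 69297275 to 69402503 on chromosome 4, the HOXB members from 38428299 to 38596261 on chromosome 19, the HOXC members from 26136686 to 26252315 on chromosome 5 and the HOXD members from 20759890 to 20856159 on chromosome 2. The HOXA genes were all listed on the plus strand and the HOXC and HOXD genes on the minus strand. In HOXB, 6 genes were listed on the plus strand, and HOXB3 and HOXB4 on the minus strand. Of 36 HOX symbols in the RefSeq annotation of the buffalo assembly NDDB_SH_1, 31 were matched by symbol. HOXA9, HOXB6, HOXB8, HOXC5 and HOXD8 were not listed under those symbols in the gene table. In turn HOXC11, HOXC12 and HOXC13 of the gene table were not among the RefSeq symbols. HOXA3 and HOXA4 overlapped each other on the same strand, as did HOXA5 and HOXA6, so the division of reads within each pair is uncertain.

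The labelled cell type was read against its markers. The satellite cell factor PAX7 stood at 12.5 to 12.7 RPKM (reads per kilobase of gene length, scaled to the sample's total reads) in GM samples and at 3.90 to 7.68 in DM samples (not called), and desmin was present in all samples. The myogenic factor MYF5 was called lower in DM samples, going from 71.2 to 78.0 RPKM in GM samples to 9.56 to 12.8 in DM samples (log2 fold change −2.70). The 7 muscle stem cell and myoblast markers did not move as one. Besides MYF5, 1 of them was called higher, and 2 of the 7 log2 fold changes were positive and 5 negative. Summed RPKM of 6 myotube markers rose from between 199.6 and 384.3 in GM samples to between 2405 and 3383 in DM samples, with all 6 called higher. Fibroblast markers also moved with the medium, from a sum of 5703 to 5784 in GM samples to a sum of 16776 to 20809 in DM samples. Of the 7 fibroblast markers tested 6 were called higher, while TCF21 was at 0.153 RPKM or less and at 0 in all DM samples. DM replicate 3 stood apart in 1 cartilage marker, ACAN, at 2.61 RPKM against 0.356 and 0.462 in the other DM samples. The marker COL2A1 was alike in all DM samples, at 0.0841 to 0.0974 RPKM, and SOX9 was not listed under that symbol. DM replicate 3 also had the lowest PAX7, at 3.90 RPKM against 7.68 and 7.08 in DM replicates 1 and 2. In the same order its fibroblast marker sum was lower, at 16776 against 20809 and 19877. Its myotube marker sum was higher, at 3383 against 2425.5 and 2405. Endothelial markers summed to between 0.746 and 1.07 RPKM in GM samples and to between 1.02 and 1.23 in DM samples, with PECAM1 near 0, TEK called higher, and CDH5 and VWF called lower. Leukocyte markers summed to between 4.11 and 5.18 RPKM in GM samples and to between 3.24 and 5.70 in DM samples, with PTPRC near 0, CD14 called higher (log2 fold change 2.75) and CD68 called lower (−1.04). Schwann cell markers summed to between 0.762 and 1.5001 RPKM in GM samples and to between 1.004 and 1.34 in DM samples, nearly all of it S100B, and none was called. Adipocyte markers summed to between 1.80 and 2.88 RPKM in GM samples and to between 5.35 and 6.44 in DM samples. Of the 4 tested, 2 were called higher. Smooth muscle and pericyte markers summed to between 554 and 652 RPKM in GM samples and to between 610 and 711 in DM samples, and none was called.

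Levels were compared between HOX genes in RPKM, since this scale takes gene length into account. HOXC6, a gene of the neck-to-chest boundary, was the most abundant HOX gene in every sample. It stood at 35.6, 42.6 and 40.8 RPKM in GM samples and at 42.0, 36.7 and 39.99 in DM samples. HOXC8, which marks the chest segments, followed at 22.6, 24.7 and 23.9 RPKM in GM samples and at 21.7, 24.4 and 20.3 in DM samples. The lowest HOXC6 sample was above the highest HOXC8 sample, and the lowest HOXC8 sample was above every sample of every other HOX gene. Over all 6 samples HOXC6 averaged 39.6 RPKM, above 84.8% of the 15576 genes tested, and HOXC8 averaged 22.9 RPKM, above 74.8% of them. The median level of all genes tested was 8.09 RPKM.

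HOXA5 and HOXA7 led the HOXA cluster. HOXA5, which helps pattern the lower neck, the shoulder and the lung, stood at 10.8, 11.3 and 9.96 RPKM in GM samples and at 10.03, 11.6 and 10.1 in DM samples. HOXA7, a gene of the chest region, was close to it at 9.92, 8.47 and 8.30 RPKM in GM samples and at 11.1, 9.27 and 8.17 in DM samples. In HOXD, HOXD9, one of the paralogs that pattern the lower back and the limb base, stood at 8.76, 10.7 and 9.004 RPKM in GM samples and at 9.52, 9.39 and 7.30 in DM samples. Its cluster neighbour HOXD4, which acts in the hindbrain and neck, stood at 6.21, 6.76 and 6.19 RPKM in GM samples and at 4.10, 5.68 and 5.69 in DM samples. The groups overlapped in RPKM for HOXA5, HOXA7 and HOXD9, while all 3 DM values of HOXD4 lay below the GM values.

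The remaining levels fell off at both ends of the numbering. After HOXC8, 13 genes from HOXA5 at 10.6 RPKM down to HOXC4 at 4.33 formed a run in which each gene overlapped the next over the 6 samples. They were, in order, HOXA5, HOXC9, HOXA7, HOXD9, HOXA3, HOXB3, HOXB2, HOXB7, HOXB4, HOXD4, HOXB9, HOXA6 and HOXC4. A second run, clear of the first, started with HOXA4 at 2.35 RPKM and passed through HOXD3, HOXC10, HOXA10 and HOXA2 at 1.003 to HOXB5 at 0.665 and HOXC13 at 0.555, with neighbours again overlapping. HOXA11, HOXC11, HOXD1, HOXD10 and HOXD11 lay between 0.238 and 0.0313 RPKM. HOXA13, HOXB1, HOXB13, HOXC12, HOXD12 and HOXD13 had at most 2 counts each in all 6 samples together, and HOXB1, HOXB13 and HOXD12 had none.

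**Figure D1:**
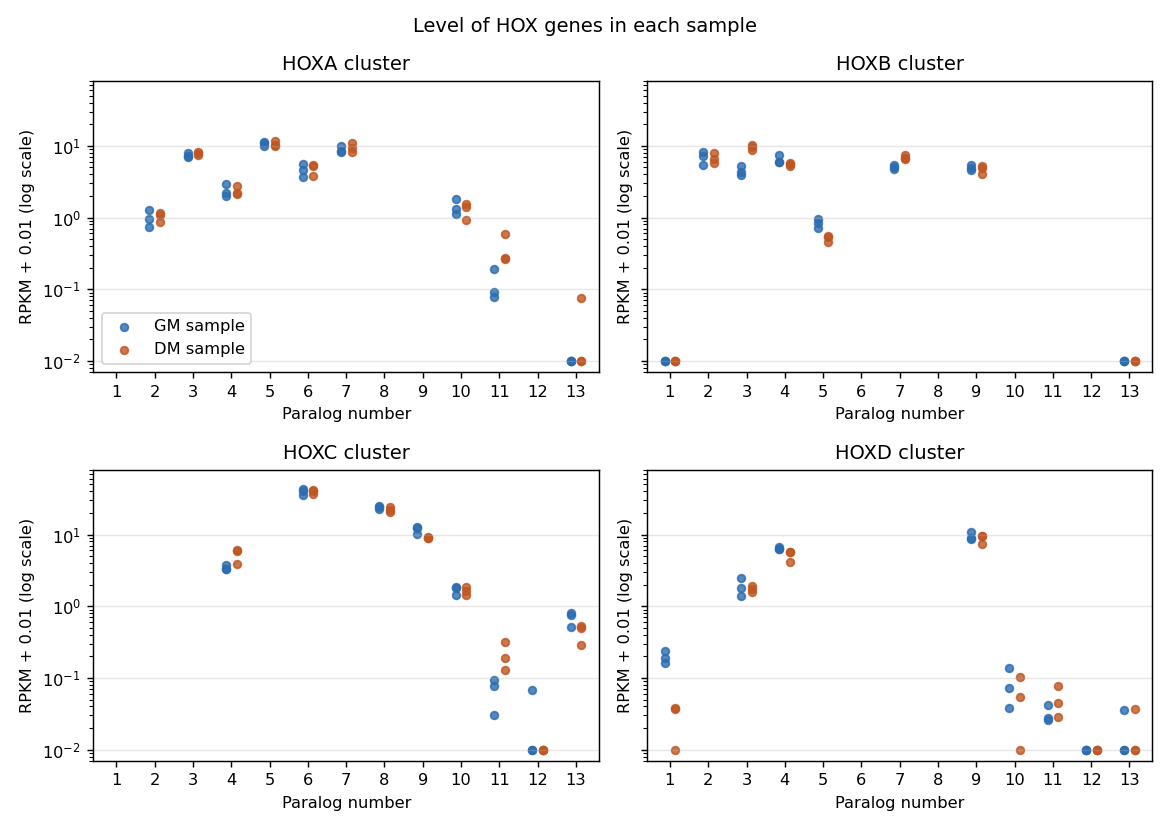
Deposited RPKM plus 0.01 (log scale) of 33 of the 34 listed HOX genes in each sample, by paralog number, with 1 panel per cluster, GM samples in blue and DM samples in orange. The highest values are those of HOXC6, between 35.6 and 42.6 RPKM, and the values fall towards paralog numbers 11 to 13, where HOXC13 at 0.555 RPKM on average is the highest.

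Summed by position, the middle of the clusters carried most of the HOX RNA. Paralog groups 4 to 8 took 68.0% ± 0.776 (SD, n = 3) of the summed HOX RPKM in GM samples and 67.2% ± 0.741 in DM samples. Paralog groups 1 to 3 took 13.7% ± 0.652 in GM samples and a larger 16.9% ± 0.835 after the switch to DM. Most of this difference of 3.18 percentage points lay in HOXB3 alone, which went from 2.73% ± 0.221 to 5.73% ± 0.558, a difference of 3.00. For groups 9 to 13 the shares were 18.3% ± 0.355 in GM and 15.9% ± 0.564 in DM. The shares of groups 1 to 3 and 9 to 13 did not overlap between GM and DM samples, and those of groups 4 to 8 did. By cluster, HOXC held 49.1% ± 1.35 of the summed HOX RPKM in GM samples and 46.9% ± 1.12 in DM samples, HOXA 22.7% and 23.4%, HOXB 17.4% and 20.3%, and HOXD 10.9% and 9.42%. Since shares add to a whole, a rise of 1 gene lowers those of the others. Genes inside the clusters without a HOX symbol were not counted in these shares.

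Between GM and DM samples the HOX genes were tested on raw counts by edgeR's quasi-likelihood method, fitted and adjusted (Benjamini-Hochberg) over all 15576 genes with at least 10 counts in total. The test included 28 of the 34 HOX genes. A gene was called where its adjusted p was under 0.05 and its log2 fold change lay beyond 1 in either direction. Of the 28, HOXB3, HOXA11 and HOXC11 were called higher in DM samples, HOXD1 was called lower, and 24 were not called. Over all tested genes 15.0% were called higher and 10.3% lower, so that 14.3% of the HOX genes and 25.3% of all genes were called in either direction. In this polyadenylated RNA from whole cultures, fewer cells of a type and less RNA per cell cannot be told apart.

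HOXB3, a gene of the hindbrain and neck region that is also active in blood progenitors, was the 1 called HOX gene of substantial level. It is listed as ENSBTAG00000021427 on the minus strand of chromosome 19, from 38573225 to 38576915, while HOXB2 is listed on the plus strand. Whether counting used strand is not given, so any effect of the listed strand on these counts was not tested. The raw counts of HOXB3 were 451, 599 and 453 in GM samples and 878, 1032 and 1113 in DM samples, so that every DM sample lay above every GM sample. In CPM it went from 12.4 ± 1.81 (SD, n = 3) in GM samples to 28.1 ± 2.04 in DM samples. The log2 fold change was 1.18 (SE 0.11, 95% interval 0.93 to 1.43), with an adjusted p of 5.79e-06 in edgeR's test. Since this interval reaches below 1, a test against a fold change of 2 gave an adjusted p of 0.118. With any 1 sample left out the log2 fold change lay between 1.09 and 1.30, and without DM replicate 3 it was 1.13.

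The other 3 called genes were near the limit of detection. HOXA11, which patterns the forearm and lower leg and is also present in limb muscle precursors, had 4, 9 and 3 counts in GM samples and 11, 26 and 12 in DM samples. No GM sample reached the lowest DM sample. The log2 fold change was 1.76 (SE 0.59, 95% interval 0.45 to 3.08) with an adjusted p of 0.0236 in edgeR's test, and the ratio of summed counts after depth scaling was 3.45 (exact binomial 95% interval 1.93 to 6.50). The call was lost without GM replicate 1 (log2 fold change 1.58, edgeR adjusted p 0.0825), GM replicate 3 (1.52, 0.0830) or DM replicate 2 (1.30, 0.116).

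HOXC11, a paralog of HOXA11 used in the lower back and hindlimb, had 4, 1 and 3 counts in GM samples and 5, 8 and 14 in DM samples. The groups did not overlap, though the nearest samples were 1 count apart. The log2 fold change was 1.86 (SE 0.70, 95% interval 0.30 to 3.42) with an edgeR adjusted p of 0.0389, and the ratio of summed counts after depth scaling was 3.802 (1.68 to 9.68). This call was lost in DESeq2 (adjusted p 0.112) and when any 1 sample other than DM replicate 1 was left out, with edgeR adjusted p-values of 0.0552 to 0.150 and log2 fold changes of 1.44 (without DM replicate 3) to 2.23. HOXD11, the remaining paralog, had 4 counts in all GM samples together and 7 in all DM samples, and was not called (log2 fold change 0.91, 95% interval −1.21 to 3.03). Summed over the 3 genes, paralog group 11 went from 0.230 ± 0.0531 CPM (SD, n = 3) in GM samples to 0.766 ± 0.243 in DM samples, with no overlap.

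HOXD1, known for its part in the wiring of pain-sensing neurons, had 7, 6 and 8 counts in GM samples and 0, 1 and 1 in DM samples. The groups were separate, and the DM samples were below the 3-count limit. The log2 fold change was −3.02 (SE 0.88, 95% interval −4.98 to −1.06) with an edgeR adjusted p of 0.0119, and the GM samples were higher by a ratio of 9.32 in summed counts after depth scaling (2.28 to 82.0). Each sample left out in turn kept the call, with edgeR adjusted p-values of 0.0195 to 0.0368, and DESeq2 gave 0.0587.

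**Figure D2:**
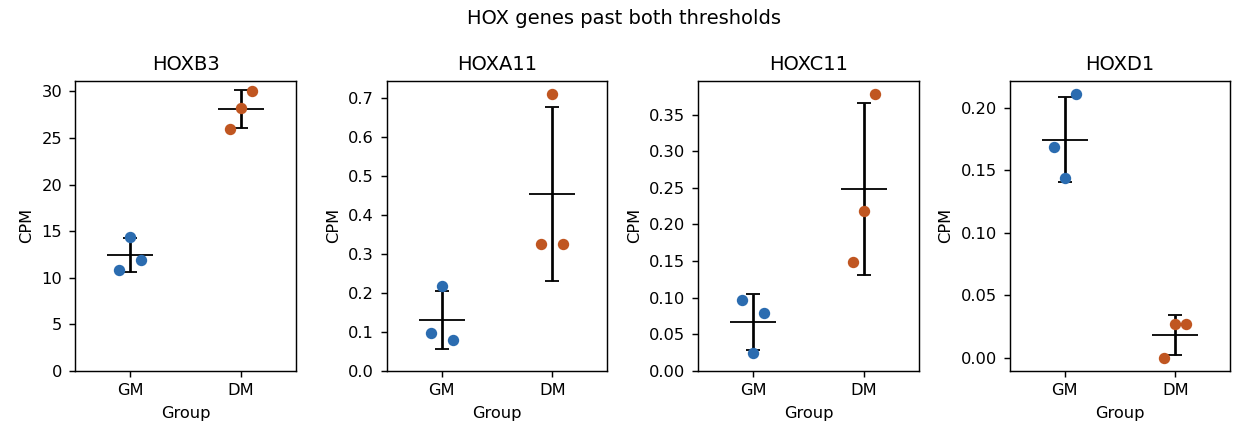
CPM with TMM factors of the 4 called HOX genes in each GM and DM sample (points), with the mean and SD of 3 samples (bars) and a separate linear axis for each gene. HOXB3 lies between 10.9 and 30.1 CPM, while HOXA11, HOXC11 and HOXD1 stay below 0.711 CPM.

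HOXB7 and HOXC4 passed the adjusted p without reaching the fold threshold. HOXB7, of the chest region, had 138, 131 and 132 counts in GM samples and 161, 166 and 194 in DM samples, and every DM sample was higher. Its log2 fold change was 0.55 (SE 0.16) with an edgeR adjusted p of 0.0116. HOXC4, of the neck region, had 248, 218 and 196 counts in GM samples and 224, 367 and 368 in DM samples. In CPM the DM samples were all higher, at 6.63, 10.03 and 9.95 against 5.98, 5.24 and 5.17. Its log2 fold change was 0.70 (SE 0.17, 95% interval 0.31 to 1.09) with an edgeR adjusted p of 0.00511. In all, 6 of the 28 HOX genes had an adjusted p under 0.05 at any fold (21.4%), where 63.0% of all tested genes did.

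For 18 of the 28 HOX genes (64.3%) the 95% interval of the log2 fold change lay wholly between −1 and 1, as it did for 52.0% of all tested genes. Their log2 fold changes ran from −0.26 for HOXC9 to 0.55 for HOXB7. Narrow intervals came from the abundant genes. For HOXC6 the change was 0.09 (95% interval −0.11 to 0.30), for HOXC8 −0.01 (−0.21 to 0.20), for HOXA5 0.08 (−0.13 to 0.29), for HOXA3 0.19 (0.0033 to 0.37) and for HOXD9 −0.02 (−0.32 to 0.28). The signs of HOXA5 and HOXC6 turned when counts were scaled by library size alone. Among the 21 HOX genes with a mean of at least 1 RPKM, 1 was called and 18 had an interval within −1 and 1, where 21.8% and 65.5% of all genes at that level did.

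The 10 HOX genes whose interval passed 1 in either direction were the 4 called genes, HOXC4 and 5 others. HOXB5 had a log2 fold change of −0.62 (95% interval −1.46 to 0.21) and HOXC13, known for its role in hair and nails, one of −0.57 (−1.48 to 0.34). HOXD10 at −0.56 and HOXD11 at 0.91 had intervals wider than 4 log2 units. HOXB5, HOXC13, HOXD10 and HOXD11 each had a mean of 0.665 RPKM or less, and a change of 2-fold was not detectable at this depth for HOXD10 and HOXD11. GM and DM samples did not overlap in CPM for 10 of the 28 (35.7%), against 68.8% of all tested genes. The DM samples were higher for HOXA3, HOXA11, HOXB3, HOXB7, HOXC4 and HOXC11, and lower for HOXB5, HOXC9, HOXD1 and HOXD4. The median log2 fold change was 0.07 over the HOX genes and 0.03 over all tested genes.

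**Figure D3:**
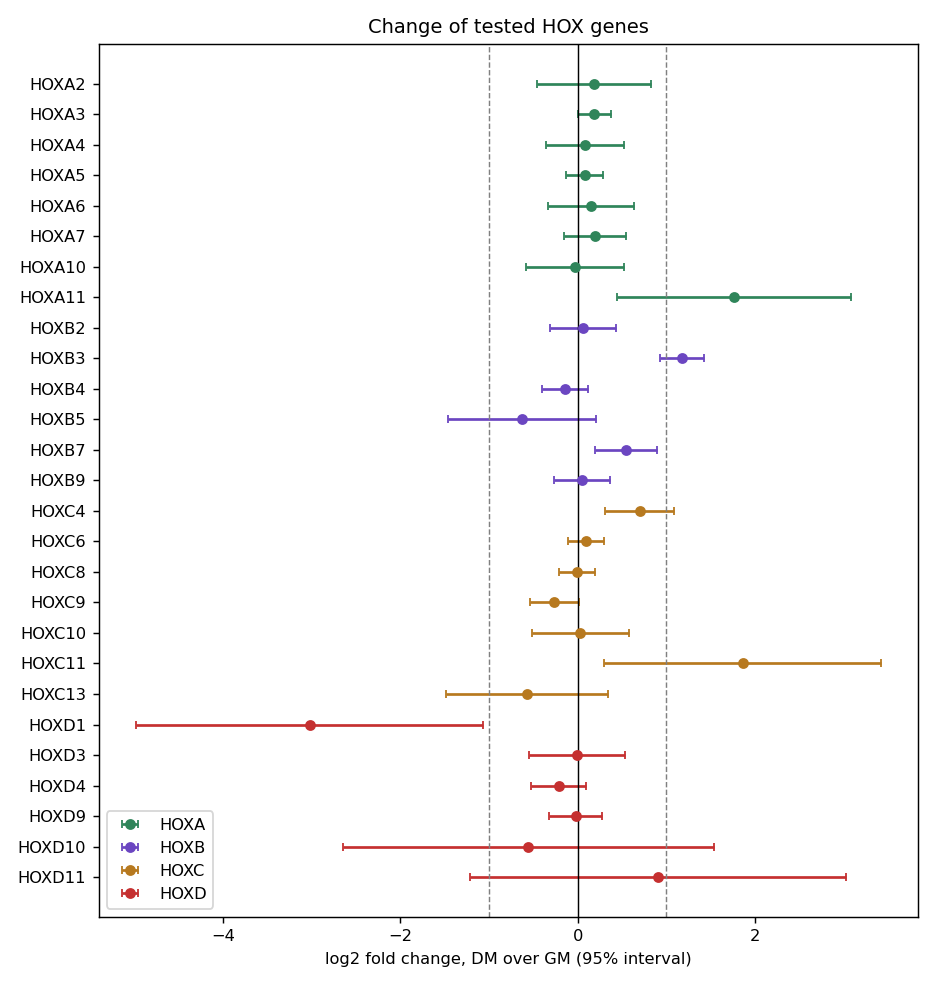
Log2 fold change (DM over GM) with its 95% interval for 27 of the 28 tested HOX genes, in order of cluster and paralog number and coloured by cluster. Dashed lines mark a change of 1 in either direction; 18 intervals lie between them, and HOXB3 at 1.18 has a narrow interval beside the wide ones of HOXA11, HOXC11 and HOXD1.

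HOXB3 was then set against its cluster neighbours and its paralogs within each sample, a comparison chosen after the values had been seen. HOXB2 and HOXB4 lie on either side of HOXB3 and act in the hindbrain and, for HOXB4, in blood stem cells. HOXB2 stood at 5.36, 8.06 and 7.18 RPKM in GM samples and at 6.62, 7.82 and 5.70 in DM samples. HOXB3 on the same scale stood at 3.97, 5.23 and 4.35 RPKM in GM samples and at 8.67, 9.75 and 10.3 in DM samples. It was thus the lower of the pair in all GM samples and the higher in all DM samples. The mean log2 ratio of HOXB3 to HOXB2 went from −0.59 ± 0.15 (SD, n = 3) to 0.52 ± 0.29, that to HOXB4 from −0.52 ± 0.07 to 0.80 ± 0.18, and that to the paralog HOXA3 from −0.71 ± 0.15 to 0.29 ± 0.09. For HOXD3, the least abundant paralog, the log2 ratio was 1.31 ± 0.41 in GM samples and 2.47 ± 0.24 in DM samples. GM and DM samples were separate for all 4 ratios, and each gave p = 0.1 in an exact two-sided permutation test, also after adjustment over the 4. That is the smallest p that 3 samples against 3 can give. HOXB3 had been called on these same samples and is the numerator of all 4 ratios. Their separation thus restates its rise and adds no separate support for it.

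**Figure D4:**
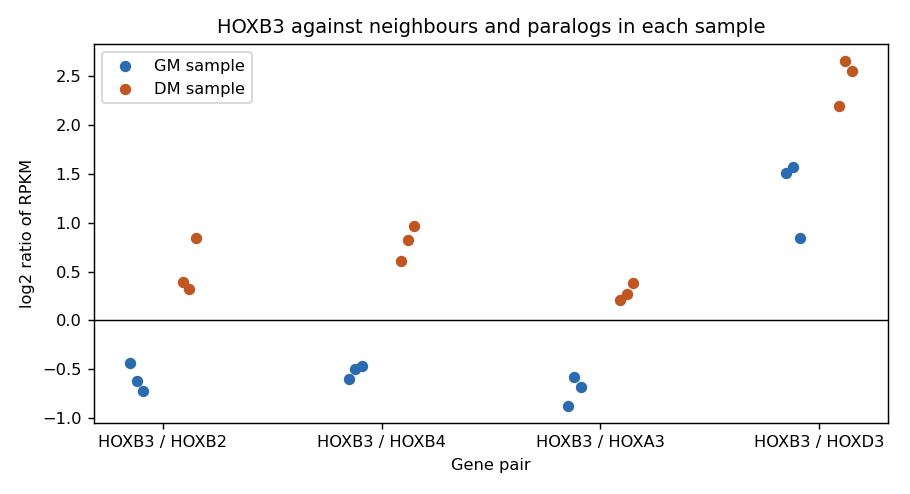
Log2 ratio of HOXB3 RPKM to that of HOXB2, HOXB4, HOXA3 and HOXD3 in each GM (blue) and DM (orange) sample. The ratios to HOXB2, HOXB4 and HOXA3 are below 0 in all GM samples and above 0 in all DM samples, and the ratio to HOXD3 has a mean of 1.31 in GM samples and 2.47 in DM samples.

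Of the 4 cluster sums, that of HOXB alone was separate between GM and DM samples in CPM. The HOXB cluster went from 45.0 ± 4.70 CPM (SD, n = 3) in GM samples to 61.5 ± 1.99 in DM samples, with no overlap, and without HOXB3 from 32.6 ± 2.90 to 33.4 ± 1.16, with overlap. The HOXA sum was 54.5 ± 3.48 CPM in GM samples and 60.4 ± 3.60 in DM samples. In the same order the HOXC sum was 70.0 ± 4.62 and 73.9 ± 0.998, and both sums overlapped. The HOXD sum was 25.1 ± 1.91 CPM in GM samples and 23.4 ± 1.12 in DM samples, also overlapping. On the deposited RPKM scale the HOXC sum was instead the lower in DM samples, at 81.0 ± 5.63 in GM samples and 78.2 ± 1.06 in DM samples. All HOX genes together were at 194.6 ± 13.4 CPM in GM samples and 219.3 ± 5.05 in DM samples, without overlap, but overlapped at 165.0 ± 10.2 and 167.0 ± 4.78 RPKM.

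The deposited transcript table gave the same 4 genes. It listed 36 transcripts of the 34 HOX genes, of which 30 were tested, 3 were called higher and 1 lower, against 25.6% of all tested transcripts called in either direction. The log2 fold change was 1.16 for the HOXB3 transcript ENSBTAT00000028563, 1.74 for that of HOXA11, 1.84 for that of HOXC11 and −3.04 for that of HOXD1. These genes each had 1 transcript with the same counts as the gene, so the transcripts are no independent measurement. HOXA4 and HOXA10 had 2 transcripts each, whose counts share reads and could not be divided.

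Listed genes without a HOX symbol that lie among the HOX genes gave no call. Of 9 listed, 3 had enough counts to be tested. The gene ENSBTAG00000011476, which has no symbol, lies inside the HOXA cluster between HOXA10 and HOXA7. That is the place of HOXA9 in the numbering, and whether the gene is HOXA9 was not tested. It had 988, 1241 and 926 counts in GM samples and 582, 813 and 475 in DM samples, all of the latter being lower. Its log2 fold change was −0.58 (edgeR adjusted p 0.0125), beside a HOXA7 change of 0.20 and a HOXA10 change of −0.03. ENSBTAG00000009634, also without a symbol and inside HOXC, had 54, 44 and 43 counts in GM samples and 56, 104 and 76 in DM samples. Its log2 fold change was 0.91 (edgeR adjusted p 0.0132), and it lies between HOXC6, the nearer of its neighbours, with a change of 0.09, and HOXC4, with a change of 0.70. That is the place of HOXC5 in the numbering, and whether the gene is HOXC5 was likewise not tested. The microRNA gene bta-mir-196b, whose mature product targets HOX messages, had 3, 6 and 6 counts in GM samples and 1, 2 and 2 in DM samples and was not called (edgeR adjusted p 0.150), and the other 6 microRNA genes had 0 or 1 count in each sample. Libraries of polyadenylated RNA do not capture mature microRNAs.

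Outside the clusters, 22 of the 24 nearest protein-coding genes, taken as 3 on each side of each cluster, could be tested. CALCOCO1 beyond HOXC was called higher (log2 fold change 1.60), and HNRNPA2B1 beyond HOXA (−1.07) and ENSBTAG00000031711 beyond HOXD (−2.09) were called lower. These were 4.55% called higher and 9.09% lower, beside 15.0% and 10.3% of all tested genes. The median change was −0.19, against 0.03 over all tested genes. EVX1, the homeobox gene at the end of the HOXA cluster, had no count in any sample.

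HOX proteins bind DNA together with TALE homeodomain proteins of the PBX, MEIS and PKNOX families. All 11 listed TALE genes were tested, 3 were called higher (27.3%) and 2 lower (18.2%), where 15.0% and 10.3% of all tested genes were. Their median log2 fold change was 0.06, against 0.03 over all tested genes. MEIS3, a HOX cofactor, went from 4.44 ± 0.569 CPM to 21.4 ± 2.36 (SD, n = 3, log2 fold change 2.26). PBX4 went the other way, from 3.58 ± 0.223 to 0.301 ± 0.167 CPM (−3.57), and PKNOX1 from 28.6 ± 1.58 to 12.7 ± 0.751 CPM (−1.17).

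Polycomb proteins keep HOX genes silent through methylation of histone H3, and Trithorax proteins keep them active. Of 23 Polycomb genes 22 were tested, 2 were called higher (9.09%) and 3 lower (13.64%), beside 15.0% and 10.3% of all tested genes. Their median log2 fold change was −0.19, and BMI1 was not listed under that symbol. EZH2, the methyltransferase of dividing cells, had 5497, 5761 and 5009 counts in GM samples and 917, 1176 and 1235 in DM samples. Its log2 fold change was −2.12 (SE 0.08, edgeR adjusted p 1.26e-08), and the groups were far apart. The accessory subunit PHF19 changed by −1.88 on the log2 scale and the chromobox protein CBX2 by −1.71. Of 14 genes listed as Trithorax and related, the 1 called was GMNN, which restrains DNA replication and is not itself a Trithorax protein. It was lower in DM samples (log2 fold change −1.49, 7.14% of the list). No Trithorax gene of the list was called in either direction, and the median of the list was −0.49.

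Retinoic acid is a classic inducer of the low-numbered HOX genes, and CDX factors induce the central ones. Of 21 genes of this pathway 16 were tested, 3 were called higher (18.8%) and none lower, beside 15.0% and 10.3% of all tested genes. The median of their log2 fold changes was 0.52. CDX4 had no count, and CDX1 and CDX2 were not listed under those symbols. STRA6, the receptor that takes up retinol, had 15, 32 and 25 counts in GM samples and 2344, 2508 and 1776 in DM samples. The groups were far apart, and its log2 fold change was 6.69 (SE 0.23, edgeR adjusted p 5.88e-09). CRABP2, which carries retinoic acid to the nucleus, went from 53.8 ± 3.65 to 194.3 ± 25.98 CPM (SD, n = 3, log2 fold change 1.85). ALDH1A1, a retinaldehyde dehydrogenase, had 3, 1 and 2 counts in GM samples and 31, 29 and 23 in DM samples, a ratio of 15.6 in summed counts after depth scaling (6.86 to 43.7). Of the genes for retinoic acid degrading enzymes, CYP26A1 had no count, CYP26C1 had 1 count in all, and CYP26B1 had 30, 40 and 38 counts in GM samples and 17, 29 and 32 in DM samples and was not called.

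Of 22 other transcription factors of body position, 18 were tested, 4 were called higher (22.2%) and 3 lower (16.7%), beside the same 15.0% and 10.3%. The median of their log2 fold changes was 0.35. PAX9, a factor of the sclerotome, had 5, 5 and 7 counts in GM samples and 21, 30 and 32 in DM samples (log2 fold change 2.42). Its relative PAX1 had 27, 18 and 11 against 58, 53 and 23 (1.45). PAX1 was called higher, but its groups overlapped, with GM replicate 1 at 0.497 RPKM and DM replicate 3 at 0.443. PAX3, which marks migrating muscle progenitors, had 4, 6 and 2 counts in GM samples and none in DM samples. Set against the 3-count limit of each DM sample, it was at least 1.17-fold lower in DM samples than its GM mean of 0.0978 CPM. In the 5 lists together 12 of 81 tested genes were called higher (14.8%) and 9 lower (11.1%), close to the 15.0% and 10.3% of all tested genes. The myotube and fibroblast markers moved with the same contrast as all of these genes, and their part in the HOX results was not tested.

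**Figure D5:**
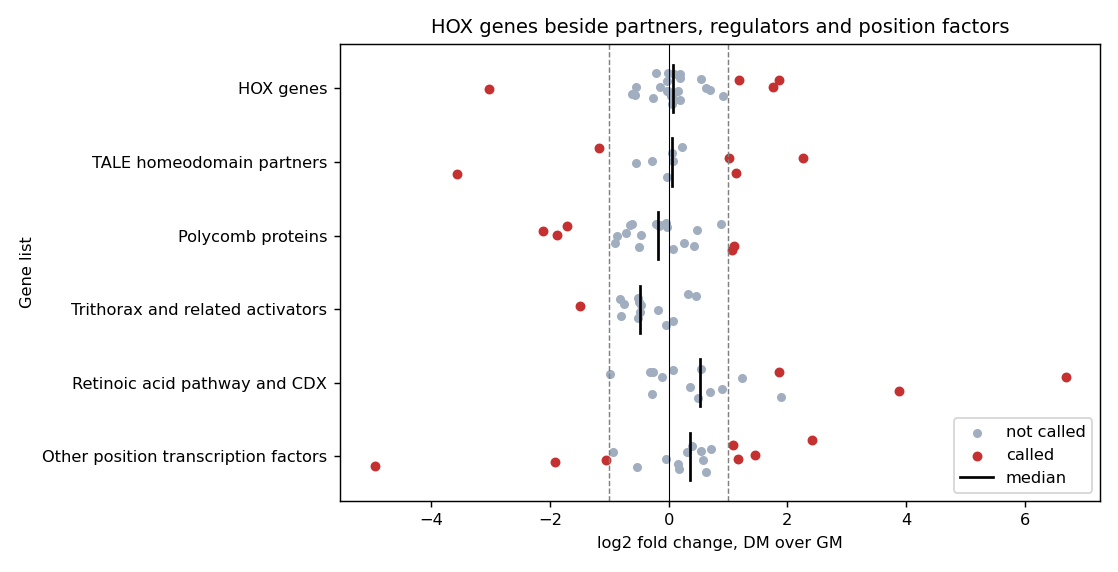
Log2 fold change (DM over GM, edgeR) of each tested HOX gene and of each tested gene of 5 related lists, with called genes in red, genes not called in grey and the median of each list as a black line. The HOX median is 0.07, and 24 of the 28 HOX genes are not called; the PAX3 point at the far left is a fitted value against 0 counts in DM samples and has no exact size.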

How the data were processed

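The 3 GM and 3 DM samples were grouped by their titles. Raw counts per gene and per mRNA transcript were deposited by the authors, who aligned reads with HISAT2. The submitters' processing notes name Bowtie 0.12.2 and the builds mm8 and mm9, while the paper's supplement names a buffalo assembly and its annotation. The tables list cattle Ensembl identifiers, so the build of their coordinates is unsettled. The counting tool and its use of strand are not given in the sources used here. The RPKM values were also deposited by the authors, computed from the counts with the deposited Length column (gene length in bases, deposited by the authors, unit other) and the total counts, without TMM. The deposited lists of differential features hold the authors' log2 fold changes and p-values and were not used, nor was the ncRNA table. No sample column was left unmapped.

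Counts were fitted with the quasi-likelihood functions of edgeR 4.0.16 under R 4.3.3, with TMM factors of 0.948 to 1.04, at least 10 counts in total over 6 samples and Benjamini-Hochberg adjustment over all features. Features were called at an adjusted p under 0.05 where the log2 fold change lay beyond 1 in either direction. Standard errors came from the F statistic. Exact tests used scipy 1.17.1, with Clopper-Pearson intervals at 95%. Tested on simulated data with the gene table's means (15422 genes), edgeR recovered 169 of 200 genes changed by a log2 value of 2 and made 2 false calls. The HOX members, gene lists and tests were chosen with earlier results of these data known. HOX genes are named, with values per sample for called members and for the 2 most abundant of each cluster, and from each other list up to 4 called genes of largest change. Values of some of these genes are not reported here and are left out of the plots that name genes. ENSBTAG00000011476, ENSBTAG00000009634, bta-mir-196b, HOXB7, HOXC4 and genes at 0 counts were singled out after their values were seen. Alternatives were DESeq2 1.42.0, its size factors, library size alone, 3 other filters, no minimum fold, a replicate block, testing against a fold change of 2 and each sample left out.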

Additional observations from a re-analysis of the deposited data

How the results depend on the processing

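HOXB3 kept its call under every alternative except the test against a fold change of 2. The number of HOX genes called higher (3) became 1 with the filter of at least 1 RPKM in more than 50% of samples, which leaves out HOXA11 and HOXC11, 5 with no minimum fold change and 0 against a fold change of 2, and was 1 to 3 with 1 sample left out. Without GM replicate 1, GM replicate 3 or DM replicate 2 it was 1. The number called lower (1) became 0 with DESeq2, filterByExpr, the RPKM filter and the test against a fold change of 2, and stayed at 1 with any 1 sample left out. HOX transcripts called (4) became 2 with DESeq2, 2 with filterByExpr, 1 with the RPKM filter and 0 against a fold change of 2, and were 2 to 4 with 1 sample left out. With no minimum fold change 28 list genes were called higher, 29 lower and 18 genes in or beside the clusters, and against a fold change of 2, 5 list genes were called higher and 5 lower. With the RPKM filter 5 list genes were called lower. With 1 sample left out the list genes called numbered 10 to 13 higher and 6 to 10 lower, and 3 to 4 genes in or beside the clusters.

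The log2 ratio of the HOXA sum, which leaves out ENSBTAG00000011476, was 0.15 and became 0.0533 with library size alone. That of HOXB was 0.45, against 0.24 in RPKM and 0.0364 without HOXB3, the latter chosen after seeing the data. That of HOXC was 0.08, against −0.0191 with library size alone and −0.0500 in RPKM, and that of HOXD was −0.10, against −0.20 on either scale. The cause was not tested. Of 407 single HOX gene values under alternatives, 390 kept their side of the thresholds and 11 genes that were not called changed sign in at least 1 setting, the largest being HOXD10 at −0.56. Library size alone moved the median of all tested genes from 0.03 to −0.07.

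Samples with the same number did not deviate together (correlations of −0.00756, −0.0218 and −0.0105), so the numbers were not read as pairs. With a replicate block 2 HOX genes were called higher, since HOXC11 had an edgeR adjusted p of 0.0664, and 1 lower, with HOXB3 at a log2 fold change of 1.18. With the block 3 HOX transcripts, 11 list genes higher, 10 lower and 3 genes in or beside the clusters were called.

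Depth limited the results for HOXA11, HOXC11, HOXD1, HOXD10 and HOXD11, whose samples held 26 counts or fewer, and for the 6 genes with at most 2 counts in total. For outliers, groups of 3 samples are too small to be examined.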
